A study of Mus musculus with 28 samples.

Results

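The comparison described here set mouse embryonic stem cells that had lost both Ehmt1 and Zic2 against cells that had lost Ehmt1 alone, 32 h after the cells were allowed to leave the naive state. It was chosen by genotype and time, and it holds 4 of the 28 RNA sequencing libraries of the series: 2 of Ehmt1/Zic2 double knockout (KO) lines and 2 of Ehmt1 KO lines, each library from a numbered KO line. All of these cells derive from RGd2, a female line that carries a GFP reporter of Rex1 (another name for Zfp42), so the reporter is present in every genotype. Cells were kept on gelatin in serum-free N2B27 medium with 2i, the inhibitors CHIR99021 (of Gsk3) and PD0325901 (of Mek), and the 32 h cells were grown on without 2i. At the same stage the polyA set of the series also held Zic2 KO cells (2 libraries) and wild type (WT) cells (2 libraries), and the same 4 genotypes were sequenced in 2i, the stage called ESC here, with 2 libraries each. Ehmt1 loss was thus shared by both genotypes compared, and the groups differed by the label of Zic2 loss. How the alleles were made, and whether the double KO lines derive from the Ehmt1 KO lines, is not given in the sources used here, so a difference between genotypes cannot be told apart from a difference between the particular lines. The 4 libraries held 21466100 to 28777604 counts each, and 15667 of 24116 genes were tested.

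Naive pluripotent cells held in 2i express a set of transcription factors such as Nanog, Esrrb and Zfp42, and when 2i is withdrawn they switch these off and turn on formative genes such as Fgf5, Otx2 and Dnmt3b. Ehmt1, also called GLP, is a methyltransferase that with Ehmt2 (G9a) places the dimethyl mark on lysine 9 of histone H3, a mark linked to gene silencing. Zic2 is a zinc finger transcription factor of the Zic family, known for binding enhancers in stem cells and for its part in forebrain development.

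Levels are given as CPM, the counts of a gene scaled to a common library total. Summed over 7 pluripotency markers, they came to 2730 and 2840 CPM in the 2 double KO libraries, against 2610 and 2780 CPM in the 2 Ehmt1 KO libraries, so both genotypes carried the markers of the labelled cell type. The 4 formative markers Fgf5, Otx2, Pou3f1 and Dnmt3b summed to 757 and 958 CPM in the double KO lines, against 1410 and 1420 CPM in the Ehmt1 KO lines. In bulk samples such as these, fewer cells of a type and less RNA per cell cannot be told apart. Markers of primitive endoderm, trophoblast, fibroblast, neural and mesoderm cells each summed to at most 28.1 CPM in the 4 libraries. No marker of these types had 0 counts in both libraries of a genotype, but 12 of 21 in the double KO and 12 of 21 in the Ehmt1 KO were under 1 CPM. Their part in the results was not tested.

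Ehmt1 counts matched the labels. Ehmt1 (chromosome 2, 24790769 to 24919643, GRCm38) had 30.5 and 28.8 CPM in the double KO lines and 31.4 and 22.6 CPM in the Ehmt1 KO lines, against 149 and 154 CPM in WT cells at 32 h. Zic2 counts did not check the labels. Zic2 (chromosome 14, 122475384 to 122480328) had 208 and 77.3 CPM in double KO lines 1 and 2, against 129 and 153 CPM in Ehmt1 KO lines 1 and 2. Double KO line 1 was the highest of the 4 and line 2 the lowest, with a log2 fold change of 0.02 ± 0.39 (standard error) and an adjusted p of 0.99. A KO allele that still makes RNA and a KO that failed cannot be told apart from these counts, and the lines are called by their labels. Zic5 differed by 0.37 ± 0.42 on the log2 scale and Zic1, under 1 CPM in all 4 libraries, by -1.65 ± 0.97, neither of them called, while Zic4 was too low to be tested. Ehmt2, the partner of Ehmt1, had 112 and 163 CPM in the double KO lines, against 116 and 139 CPM in the Ehmt1 KO lines.

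At 32 h, 35 of 15667 genes (0.223%) were called between the double KO and the Ehmt1 KO at an adjusted p under 0.05 in edgeR's quasi-likelihood test with Benjamini-Hochberg adjustment. Of these, 18 were higher in the double KO (0.115% of genes tested) and 17 were lower (0.109%). The orphan nuclear receptor Esrrb, the Nodal antagonist Lefty2, the Bmp target Id3 and the P-cadherin gene Cdh3 were among the genes that rose, and the chemokine gene Cxcl12, the protocadherin genes Pcdh1 and Pcdh18 and the retinoic acid carrier Crabp2 among those that fell. In every one of the 35 the 2 double KO libraries lay on one side of the 2 Ehmt1 KO libraries, as did 21% of all genes on the higher side and 21.1% on the lower side. Without a correction for the number of genes, 2036 genes (13% of those tested) had a p under 0.05, 1065 of them higher and 971 lower. The genes just outside the threshold were Ccnd1 (adjusted p 0.051), Gpn1 (0.056), Zfp42 (0.058) and Lin28a (0.059), and the last inside it was Espn (0.049). The count rested on single libraries: it was 0 without double KO line 1 and 21 without double KO line 2, and it was 280 without Ehmt1 KO line 1 and 1 without Ehmt1 KO line 2. It was also 0 when only these 4 libraries were fitted, and 260 with DESeq2 on all 16 polyA libraries, all 35 genes included.

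**Figure D1:**
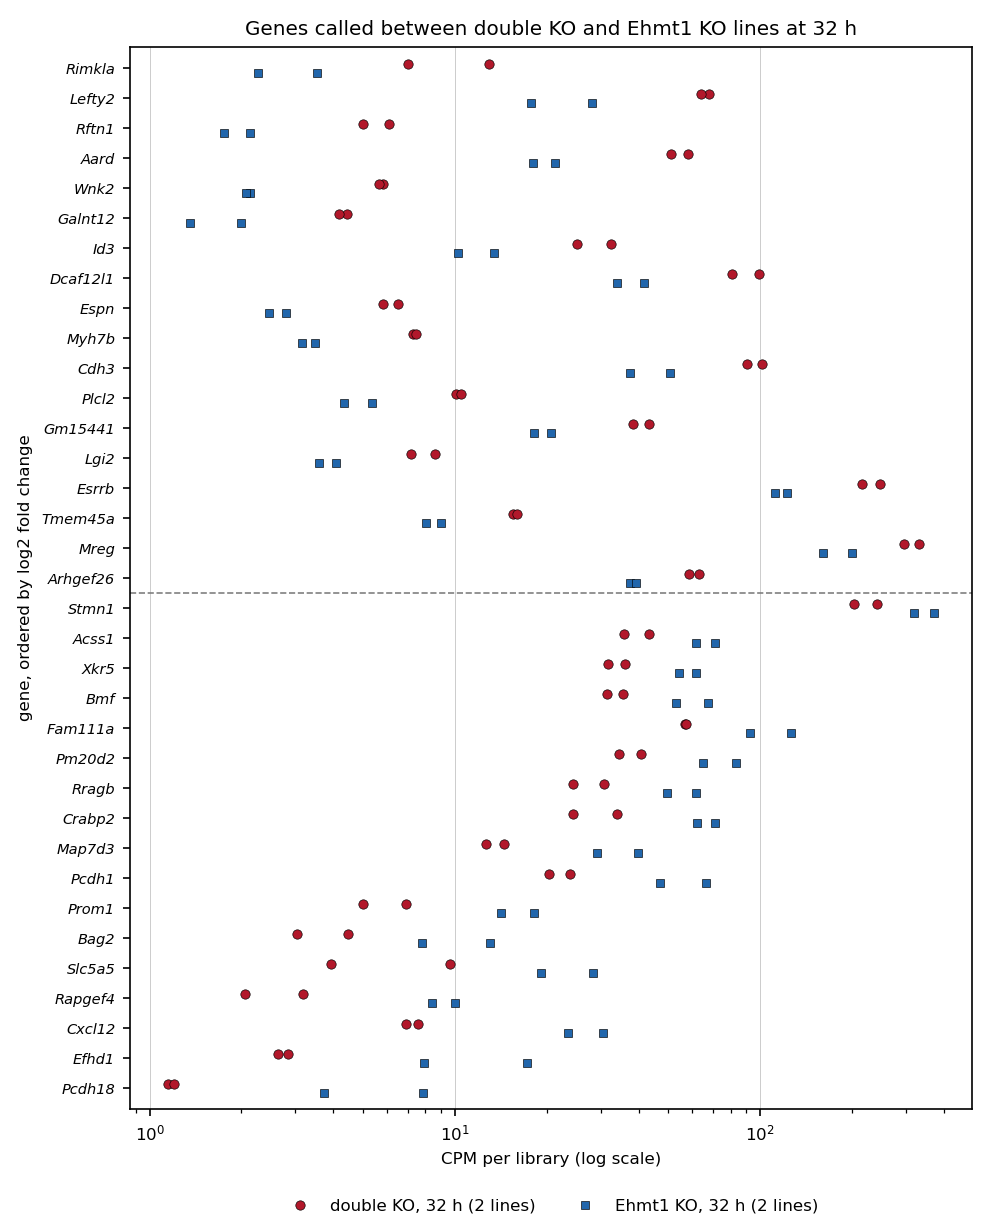
CPM on a log axis in each of the 2 double KO libraries (red circles, above) and the 2 Ehmt1 KO libraries (blue squares, below) at 32 h for the 35 called genes, ordered by log2 fold change, with a dashed line between the 18 higher and the 17 lower genes. In each row the 2 genotypes do not overlap, and levels run from 1.15 CPM for Pcdh18 to 370 CPM for Stmn1.

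Among the genes that rose, 3 belong to the pluripotency and signalling network. Esrrb (chromosome 12, 86361117 to 86521628), an orphan nuclear receptor that helps hold the naive state, had 215 and 246 CPM in the double KO lines, against 122 and 112 CPM in the Ehmt1 KO lines. Both double KO lines stood above both Ehmt1 KO lines, a 1.97-fold difference (log2 0.98 ± 0.13, adjusted p 0.017). Id3, which encodes an inhibitor of basic helix-loop-helix factors induced by Bmp signals, had 32.4 and 25.2 CPM in the double KO, against 13.4 and 10.2 CPM in the Ehmt1 KO. This was a 2.44-fold difference with no overlap (log2 1.29 ± 0.16, adjusted p 0.017). Lefty2 (chromosome 1, 180893108 to 180899107), a secreted antagonist of Nodal and itself a Nodal target, had 68.1 and 63.9 CPM in the double KO, against 28.1 and 17.7 CPM in the Ehmt1 KO. The 2 double KO lines lay close together, and the difference was 2.89-fold (log2 1.53 ± 0.28, adjusted p 0.045). When each of the 4 libraries was left out in turn, Esrrb kept its call in 1 of 4 fits (adjusted p 0.015 to 0.20), Id3 in 2 of 4 (0.0059 to 0.20) and Lefty2 in 1 of 4 (0.018 to 0.54).

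The gene with the highest level among those that rose was Mreg, which encodes melanoregulin, a protein of organelle transport. It had 295 and 330 CPM in the double KO lines, against 200 and 161 CPM in the Ehmt1 KO lines (log2 0.79 ± 0.13). Cdh3, the adhesion molecule P-cadherin, had 101 and 90.8 CPM in the double KO, against 50.6 and 37.5 CPM in the Ehmt1 KO (log2 1.13 ± 0.17). Aard, which encodes a protein rich in alanine and arginine, had 50.9 and 58 CPM in the double KO, against 21.2 and 18 CPM in the Ehmt1 KO (log2 1.47 ± 0.20). All 3 genes separated the genotypes by more than the distance between lines of one genotype. The X-linked Dcaf12l1, named as a relative of an adaptor of Cul4 ubiquitin ligases, had 80.7 and 98.8 CPM in the double KO, against 34 and 41.7 CPM in the Ehmt1 KO (log2 1.25 ± 0.20). Arhgef26, which encodes a guanine nucleotide exchange factor, had 62.9 and 58.5 CPM in the double KO, against 37.4 and 39.1 CPM in the Ehmt1 KO, the smallest rise on the log2 scale of the 18 at 0.67 ± 0.11.

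Most of the other genes that rose were of lower level. Rimkla, which encodes an enzyme that joins N-acetylaspartate to glutamate, showed the largest rise, with 12.9 and 7.01 CPM in the double KO, against 3.54 and 2.27 CPM in the Ehmt1 KO (log2 1.79 ± 0.28). Wnk2, a kinase gene, had 5.8 and 5.66 CPM in the double KO, against 2.14 and 2.07 CPM in the Ehmt1 KO (log2 1.44 ± 0.23), so lines of one genotype barely differed. Rftn1, which encodes the lipid raft protein raftlin, rose by 1.51 ± 0.21 on the log2 scale, Espn, an actin bundler, by 1.23 ± 0.22, and Myh7b, a myosin heavy chain gene, by 1.15 ± 0.20. Plcl2, a relative of phospholipase C without its activity, rose by 1.09 ± 0.18, Lgi2, which encodes a secreted leucine-rich protein, by 1.04 ± 0.19, and Tmem45a, a transmembrane protein gene, by 0.88 ± 0.15. Galnt12, an enzyme that starts O-linked glycans, was under 5 CPM in both genotypes (1.36 ± 0.24), and the only non-coding gene called was Gm15441, with 38.2 and 43.3 CPM in the double KO, against 18.1 and 20.7 CPM in the Ehmt1 KO (1.07 ± 0.17).

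Among the genes that fell, Cxcl12 (chromosome 6, 117168535 to 117181368) had the smallest adjusted p of all genes. It encodes the chemokine that acts through the receptor Cxcr4. It had 6.94 and 7.56 CPM in the double KO lines, against 23.5 and 30.6 CPM in the Ehmt1 KO lines, 3.73-fold lower in the double KO (log2 -1.90 ± 0.19, adjusted p 0.0028). The double KO lines lay within 1 CPM of each other and far below both Ehmt1 KO lines, and the call held in 3 of 4 fits that each left out 1 library, with an adjusted p of 0.11 without double KO line 1. Both protocadherin genes called, which encode cell adhesion molecules, fell: Pcdh1 had 20.3 and 23.9 CPM in the double KO, against 47.1 and 66.2 CPM in the Ehmt1 KO (log2 -1.36 ± 0.18). Pcdh18 had 1.15 and 1.20 CPM in the double KO, against 3.72 and 7.85 CPM in the Ehmt1 KO, the largest fall of the 17 on the log2 scale at -2.30 ± 0.38. In Pcdh18 the Ehmt1 KO lines themselves differed widely, and its log2 fold change was -2.74 without Ehmt1 KO line 1 and -1.66 without Ehmt1 KO line 2. Crabp2, a carrier of retinoic acid to its receptor, had 24.3 and 33.9 CPM in the double KO, against 70.9 and 62.2 CPM in the Ehmt1 KO (log2 -1.19 ± 0.18).

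The remaining genes that fell have varied roles. Efhd1, a calcium-binding protein gene of mitochondria, had 2.63 and 2.85 CPM in the double KO, against 7.91 and 17.2 CPM in the Ehmt1 KO (log2 -2.20 ± 0.31). Rapgef4, a cAMP-regulated activator of Rap GTPases, had 2.06 and 3.18 CPM in the double KO, against 8.42 and 10 CPM in the Ehmt1 KO (log2 -1.82 ± 0.27). Slc5a5, the sodium and iodide symporter, had 3.94 and 9.64 CPM in the double KO, against 19.2 and 28.3 CPM in the Ehmt1 KO (log2 -1.81 ± 0.33). In Efhd1 and Slc5a5 the lines of at least 1 genotype differed clearly from each other, yet the genotypes did not overlap in any of these 3 genes. Left-out libraries moved the log2 fold change of Slc5a5 to -2.59 without double KO line 2 and -1.32 without double KO line 1, and that of Efhd1 to -2.65 without Ehmt1 KO line 1 and -1.53 without Ehmt1 KO line 2. Prom1, the membrane protein prominin 1, fell by 1.44 ± 0.21 on the log2 scale, Bag2, a co-chaperone of Hsp70, by 1.48 ± 0.26, and Map7d3, an X-linked microtubule-binding protein gene, by 1.35 ± 0.20. Rragb, an X-linked Rag GTPase of nutrient sensing, fell by 1.01 ± 0.14, Pm20d2, a peptidase gene, by 0.98 ± 0.16, and Fam111a, a protease gene, by 0.94 ± 0.13. Bmf, a pro-apoptotic relative of Bcl2, fell by 0.85 ± 0.13, Xkr5, a gene of the XK family, by 0.77 ± 0.12, and Acss1, the mitochondrial acetyl-CoA synthetase, by 0.75 ± 0.13. Stmn1, which encodes the microtubule destabiliser stathmin, was the most abundant, with 203 and 242 CPM in the double KO lines, against 318 and 370 CPM in the Ehmt1 KO lines (log2 -0.63 ± 0.11). Both genotypes came from female lines, and X-linked counts made up 3.03% and 3.00% of the total in the double KO, against 3.13% and 3.23% in the Ehmt1 KO. Xist, the RNA that coats the inactive X, had 15.1 and 28.6 CPM in the double KO, against 29.9 and 59.7 CPM in the Ehmt1 KO. With X-linked genes left out, 31 of the other 32 called genes kept their call.

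Since Zic2 binds DNA, the 250 bases before the annotated start sites of called genes were searched for CAGCAGG, a core of the motif known for Zic proteins, and for its reverse complement CCTGCTG. RefSeq windows (GRCm38.p6) were matched for 25 of the 35 genes. At least 1 window held the motif in 2 of 12 genes that rose (Espn and Mreg, 16.7%) and in 2 of 13 that fell (Bmf and Pcdh18, 15.4%), against 10.6% of the genes tested that had a window. The matches are a description of these letters and not of binding. Windows are shown for 1 gene with and 1 without a match per direction: Mreg and Id3, which rose, and Pcdh18 and Cxcl12, which fell. Matches are thus more frequent among the genes shown than among the called genes, and no window of Esrrb held a match. The sequences read 5′ to 3′ on the gene's strand, with the motif in capitals.
Id3 (chr4:136143572-136143821, plus strand): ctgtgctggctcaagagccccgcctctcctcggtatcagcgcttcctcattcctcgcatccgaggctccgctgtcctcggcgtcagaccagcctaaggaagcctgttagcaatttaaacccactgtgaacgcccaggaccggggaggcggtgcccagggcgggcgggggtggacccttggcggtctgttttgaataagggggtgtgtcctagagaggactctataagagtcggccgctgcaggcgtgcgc
Mreg (chr1:72212315-72212564, minus strand): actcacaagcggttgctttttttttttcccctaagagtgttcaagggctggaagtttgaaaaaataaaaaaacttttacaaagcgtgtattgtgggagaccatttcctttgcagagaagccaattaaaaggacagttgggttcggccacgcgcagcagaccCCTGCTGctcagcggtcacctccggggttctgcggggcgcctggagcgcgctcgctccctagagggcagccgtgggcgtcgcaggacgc
Cxcl12 (chr6:117168285-117168534, plus strand): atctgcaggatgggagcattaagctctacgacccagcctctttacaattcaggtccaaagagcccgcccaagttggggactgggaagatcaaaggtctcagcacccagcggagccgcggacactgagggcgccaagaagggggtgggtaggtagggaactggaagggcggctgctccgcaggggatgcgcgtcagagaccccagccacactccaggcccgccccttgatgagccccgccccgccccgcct
Pcdh18 (chr3:49757317-49757566, minus strand): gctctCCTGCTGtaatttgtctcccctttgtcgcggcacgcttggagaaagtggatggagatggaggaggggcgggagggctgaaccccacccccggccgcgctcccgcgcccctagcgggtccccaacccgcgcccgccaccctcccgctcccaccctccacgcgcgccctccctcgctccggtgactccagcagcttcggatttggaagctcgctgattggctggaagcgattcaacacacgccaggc
The match in Mreg began 89 bases before the start site and that in Pcdh18 245 bases before it.

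Genes of the naive state leaned higher in the double KO. Of 20 naive genes tested, edgeR called 1 (Esrrb, higher) and 18 had a positive log2 fold change, where 52% of all genes tested did. The median was 0.66, against 0.01 over all genes tested. At an unadjusted p under 0.05, 12 were higher and 1 was lower, where 6.8% of all genes were higher and 6.2% lower. DESeq2 called 7 of the 20, all higher: Esrrb, Jam2, Nanog, Nr0b1, Nr5a2, Prdm14 and Zfp42. Over all 15667 genes DESeq2 called 260, 117 higher and 143 lower, to be read beside its count in each list. Zfp42, the reporter's namesake and a zinc finger marker of the naive state, had 364 and 324 CPM in the double KO lines, against 244 and 179 CPM in the Ehmt1 KO lines (log2 0.70 ± 0.13, adjusted p 0.058). Nanog, a homeobox factor, had 347 and 359 CPM in the double KO, against 258 and 168 CPM in the Ehmt1 KO (0.73 ± 0.16, adjusted p 0.095). In both genes the double KO lines lay above both Ehmt1 KO lines, as in 21% of all genes tested, and Ehmt1 KO line 2 was the lowest.

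The same held for several other regulators that edgeR did not call. Prdm14, a repressor of Fgf signalling, had 18.9 and 24 CPM in the double KO, against 14.5 and 7.77 CPM in the Ehmt1 KO (log2 0.95 ± 0.22, adjusted p 0.11). The nuclear receptor gene Nr5a2 had 43.5 and 52.6 CPM in the double KO, against 35.6 and 25.6 CPM in the Ehmt1 KO (0.65 ± 0.16, adjusted p 0.12). Klf2, a zinc finger factor, had 180 and 210 CPM in the double KO, against 122 CPM in each Ehmt1 KO line (0.68 ± 0.23, adjusted p 0.24). These 3 genes separated the genotypes without passing edgeR's test, as the libraries of 21% of all genes tested did on the higher side. DESeq2 called Prdm14 and Nr5a2. For the nuclear receptor gene Nr0b1 the log2 fold change was 0.97 ± 0.25, for the adhesion gene Jam2 0.94 ± 0.25, for Sox15 1.18 ± 0.42 and for Klf4 0.44 ± 0.16. The 2 naive genes with a negative value were Fgf4, the growth factor that drives Erk, at -0.60 ± 0.20, and the homeobox gene Gbx2 at -0.41 ± 0.44. The germ cell and naive marker Dppa3 differed most between lines, with 144 and 48.3 CPM in double KO lines 1 and 2, against 51.4 and 5.70 CPM in Ehmt1 KO lines 1 and 2, so its groups overlapped.

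Genes of the formative state leaned lower. edgeR called none of 18, 17 had a negative log2 fold change (48% of all genes did), 8 were lower at an unadjusted p under 0.05 and none was higher, and the median was -0.47. DESeq2 called 2 of the 18, Dnmt3b and Tead2, both lower. The de novo DNA methyltransferase gene Dnmt3b had 637 and 719 CPM in the double KO lines, against 1170 and 1110 CPM in the Ehmt1 KO lines (-0.74 ± 0.18, adjusted p 0.12). Both double KO lines lay far below both Ehmt1 KO lines. Tead2, a partner of Yap, had 164 and 158 CPM in the double KO, against 212 and 228 CPM in the Ehmt1 KO (-0.46 ± 0.11, adjusted p 0.13). Otx2, a homeobox factor of the formative state, had 89.8 and 106 CPM in the double KO, against 145 and 127 CPM in the Ehmt1 KO (-0.48 ± 0.15, adjusted p 0.23). The secreted factor gene Fgf15 had 8.80 and 21.2 CPM in the double KO, against 40.9 and 60.9 CPM in the Ehmt1 KO (-1.77 ± 0.53, adjusted p 0.20).

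The double KO lines differed from each other in this group. Fgf5, the classical marker of the formative epiblast, had 5.26 and 25.7 CPM in double KO lines 1 and 2, against 28.6 and 42.5 CPM in Ehmt1 KO lines 1 and 2. Pou3f1, a POU factor also called Oct6, had 24.5 and 107 CPM in double KO lines 1 and 2, against 72.5 and 140 CPM in the Ehmt1 KO lines. In Fgf5 the groups stayed just apart, in Pou3f1 they overlapped, and in both genes double KO line 1, the line with the higher Zic2 count, was the lowest of the 4. The adjusted p was 0.40 for Fgf5 and 0.58 for Pou3f1. Grhl2, an epithelial transcription factor, had 47.1 and 101 CPM in the double KO, against 130 and 138 CPM in the Ehmt1 KO (-0.86 ± 0.32).

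**Figure D2:**
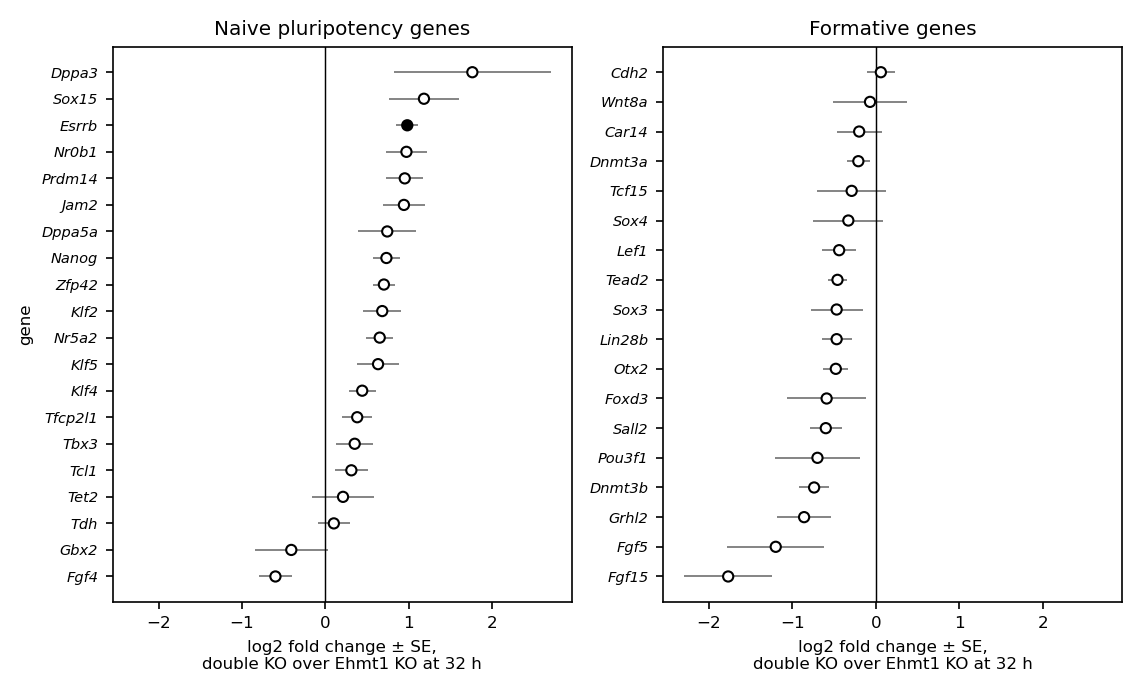
Log2 fold change of the double KO over the Ehmt1 KO at 32 h, with its standard error, for each tested gene of the naive list (left) and the formative list (right), with filled points for called genes and open points for the others. In the naive list 18 of 20 points lie right of 0 and only Esrrb is called by edgeR, and in the formative list 17 of 18 lie left of 0 and none is called by edgeR.

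Of 12 genes of general pluripotency edgeR called none, 5 were positive and 7 negative, 3 were higher and 3 lower at an unadjusted p under 0.05, and the median was -0.10. DESeq2 called 3, all lower: Lin28a, Pou5f1 and Zscan10. Within this group values lay on both sides. Lin28a, an RNA-binding inhibitor of let-7, had 569 and 625 CPM in the double KO, against 858 and 1030 CPM in the Ehmt1 KO (-0.66 ± 0.13, adjusted p 0.059). Pou5f1, the core factor Oct4, had 1100 and 1120 CPM in the double KO, against 1380 and 1550 CPM in the Ehmt1 KO (-0.40 ± 0.11, adjusted p 0.19). Sox2, its partner, had 229 and 276 CPM in the double KO, against 154 and 183 CPM in the Ehmt1 KO (0.58 ± 0.17, adjusted p 0.19). Each of these 3 genes separated the genotypes, Sox2 upward and the other 2 downward. Of all genes tested, 21% did so upward and 21.1% downward.

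Of 18 genes of the Nodal and Bmp pathways, edgeR called 2, Lefty2 and Id3, both higher. Of the 18, 13 were positive (52% of all genes were), 5 were higher and 1 lower at an unadjusted p under 0.05, and the median was 0.27. DESeq2 called 4, all higher: Id3, Lefty2, Lefty1 and Smad6. Lefty1, the neighbouring Nodal antagonist gene, had 151 and 179 CPM in the double KO, against 94.5 and 54.7 CPM in the Ehmt1 KO (1.15 ± 0.35, adjusted p 0.21). The ligand gene Nodal had 111 and 236 CPM in the double KO, against 154 and 133 CPM in the Ehmt1 KO, with overlapping groups (0.27 ± 0.26). Smad6, an inhibitor of Bmp signals, was at 1.19 ± 0.32, and the Id3 relative Id2 lay the other way at -1.41 ± 0.41, with 3.84 and 8.54 CPM in the double KO, against 10.7 and 22.1 CPM in the Ehmt1 KO. edgeR called neither, and DESeq2 called Smad6.

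Of 19 genes of cadherins, junctions and matrix, edgeR called 1, Cdh3, which was higher, while 2 were higher and 4 lower at an unadjusted p under 0.05, and the median was -0.05. DESeq2 called Cdh3 higher and Cdh1 lower. The E-cadherin gene Cdh1 had 407 and 712 CPM in double KO lines 1 and 2, against 870 and 954 CPM in the Ehmt1 KO lines (-0.70 ± 0.19, adjusted p 0.16). The epithelial adhesion gene Epcam had 69.1 and 157 CPM in double KO lines 1 and 2, against 185 and 194 CPM in the Ehmt1 KO lines (-0.75 ± 0.28, adjusted p 0.29). In both genes the double KO was lower in each line, as in 21.1% of all genes tested, and line 1 was again the lowest.

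In some other lists edgeR called no member. All 8 tested genes of the 2-cell-like state were positive (median 0.72), 2 of them at an unadjusted p under 0.05 and 0 with DESeq2, but in the most abundant of the Usp17l genes, Usp17la, double KO line 2 alone stood high, with 16.3 and 33.5 CPM in double KO lines 1 and 2, against 12.1 and 12.5 CPM in the Ehmt1 KO lines. Reads of these near-identical copies can be split in counting. Of 14 trophoblast genes 12 were positive (median 0.58), 3 were higher at an unadjusted p under 0.05, and DESeq2 called 2, Tfap2c and Tead4. Tfap2c, which is also active in naive cells, had 35 and 24.6 CPM in the double KO, against 13.9 and 9.57 CPM in the Ehmt1 KO (1.35 ± 0.27, adjusted p 0.074). Of 13 neural genes 11 were negative (median -0.71), 4 were lower and 1 higher at an unadjusted p under 0.05, and DESeq2 called 0. Sox1, an early neural factor, had under 1 CPM in both double KO lines, against 0.884 and 5.42 CPM in Ehmt1 KO lines 1 and 2 and a mean of 43.6 CPM in WT cells. Of 31 imprinted genes 14 were positive and 17 negative (median -0.13). At an unadjusted p under 0.05, 6 were lower and 0 higher, where 6.2% of all genes were lower and 6.8% higher. DESeq2 called Rian and Mirg, non-coding RNAs of the Dlk1-Dio3 cluster. Rian had 180 and 223 CPM in the double KO, against 465 and 571 CPM in the Ehmt1 KO (-1.36 ± 0.30, adjusted p 0.096), while Mirg was at -1.31 ± 0.38 and Meg3, of the same cluster, at -0.93 ± 0.34. In the other 18 lists edgeR called none of 249 entries, 14 were higher and 20 lower at an unadjusted p under 0.05, and the medians lay between -0.23 for H3K9 methylation and 0.43 for the histone genes of replication. DESeq2 called 3 members of these lists, Dnmt3b, Dcn and Ccnd1, all lower.

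**Figure D3:**
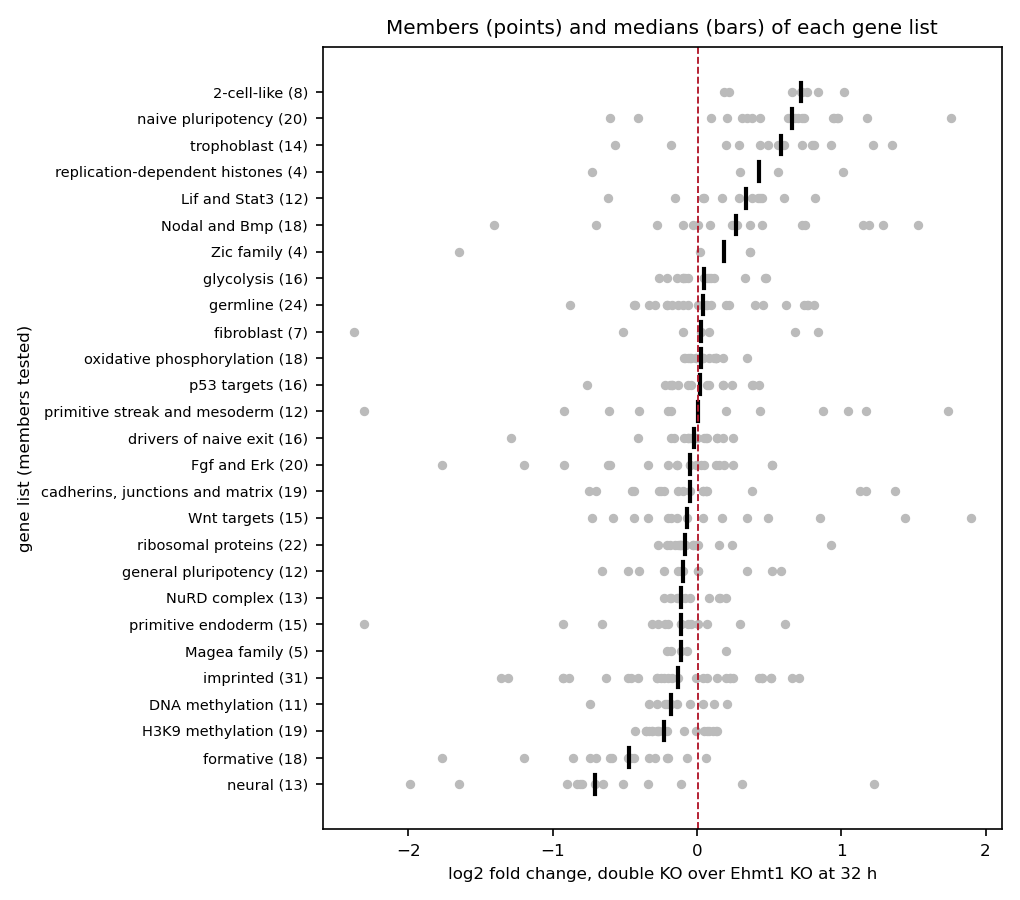
Log2 fold change of the double KO over the Ehmt1 KO at 32 h for each tested member (grey points) of the 27 gene lists, with the list median (black bar) and the median of all genes tested at 0.01 (dashed line). The 2-cell-like and naive lists have the highest medians, 0.72 and 0.66, and the formative and neural lists the lowest, -0.47 and -0.71.

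In 2i the same 2 genotypes differed at 15 genes (0.0957% of those tested), 7 higher and 8 lower in the double KO, of which Cdh3 (log2 1.43 ± 0.17, adjusted p 0.0089) and Xkr5 (-0.75 ± 0.12, adjusted p 0.047) were also called at 32 h in the same direction. Of the 18 genes that rose at 32 h, 15 had a positive value in 2i (53% of all genes did) with a median of 0.46, and of the 17 that fell, 15 had a negative value (46.9% of all genes did) with a median of -0.66. These libraries are separate from those at 32 h but come from the same lines. Left-out libraries in 2i moved the count of 15 to 1 without double KO line 1, to 287 without double KO line 2, to 51 without Ehmt1 KO line 1 and to 0 without Ehmt1 KO line 2. Cxcl12 was already lower in 2i at a low level, with a mean of 0.494 CPM in the double KO, against 1.74 CPM in the Ehmt1 KO (log2 -1.80, adjusted p 0.053). Otx2 was called lower in 2i (-1.39, adjusted p 0.0089), with 8.02 CPM in the double KO, against 21 CPM in the Ehmt1 KO. Esrrb and Lefty2 did not show the difference of 32 h: in 2i Esrrb averaged 634 CPM in the double KO, against 687 CPM in the Ehmt1 KO, and Lefty2 157 CPM in the double KO, against 171 CPM in the Ehmt1 KO, log2 -0.12 for both genes.

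The change of the genotype difference between 2i and 32 h was tested as an interaction, and 1 gene, Id3, was called (0.00638% of genes tested). In 2i Id3 averaged 16.3 CPM in the double KO, against 25.1 CPM in the Ehmt1 KO (log2 -0.62, adjusted p 0.20), the reverse of its order at 32 h, and the difference of differences was 1.91 ± 0.23 on the log2 scale (adjusted p 0.025). WT cells averaged 24.5 CPM in 2i and 5.12 CPM at 32 h. At an unadjusted p under 0.05 there were 652 genes. The change was positive in 17 of the 18 genes that rose at 32 h (50.3% of all genes) and negative in all 17 that fell (49.7%), but it shares the libraries at 32 h with the calls, so nothing is read from these counts. The line was also used as a replicate block, in a fit of the double KO and Ehmt1 KO libraries alone, on 15193 genes. It called 8 genes, 5 higher and 3 lower, where the same libraries without the block gave 0. Among the 8 were Id3 (1.92, adjusted p 0.047), Esrrb (1.09), Klf4 (1.20) and Tfap2c (1.39) on the higher side. The formative gene Sall2 (-1.35) was on the lower side, each of these genes at an adjusted p of 0.047. The call of Id3 without the block was lost without double KO line 1 or Ehmt1 KO line 2 at 32 h (adjusted p 0.16 each), and without double KO line 1, Ehmt1 KO line 1 or Ehmt1 KO line 2 in 2i (0.21, 0.081 and 0.15).

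**Figure D4:**
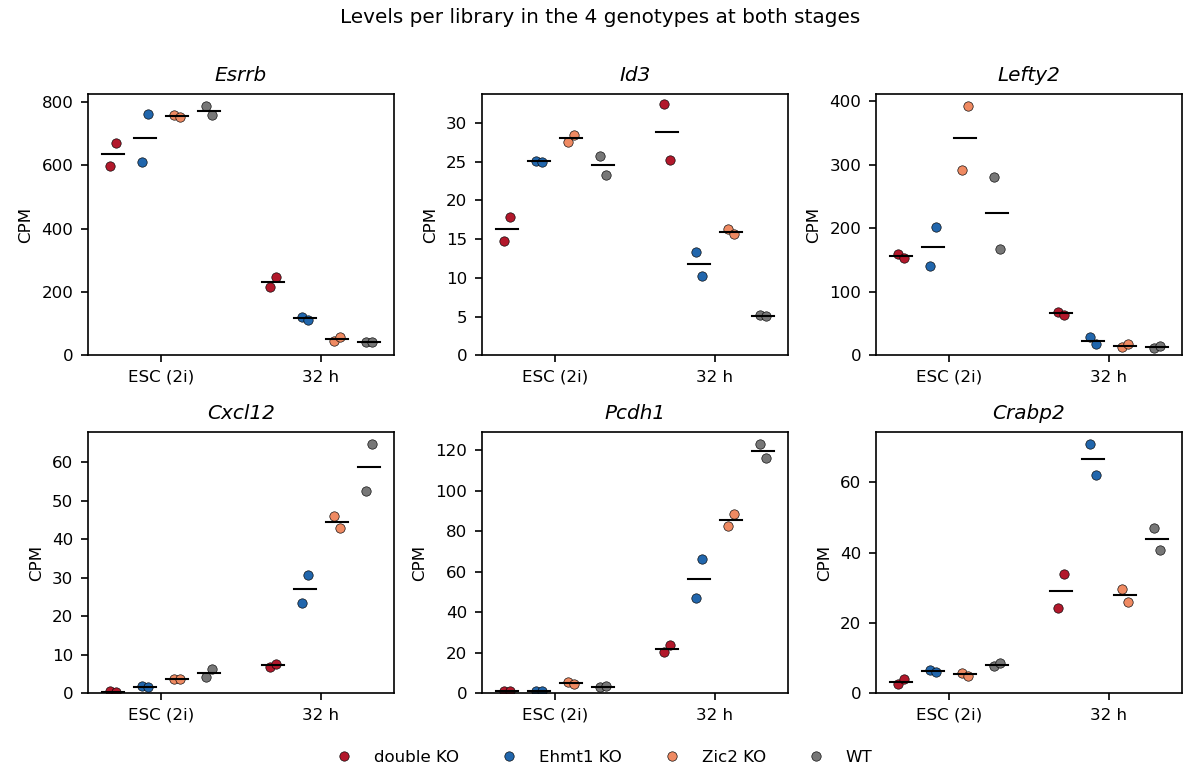
CPM of 6 called genes in each of the 2 libraries (points) and their mean (bar) in double KO, Ehmt1 KO, Zic2 KO and WT cells, in 2i (ESC) and at 32 h. At 32 h Esrrb, Id3 and Lefty2 are highest and Cxcl12 and Pcdh1 lowest in the double KO, and Crabp2 is highest in the Ehmt1 KO.

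The same label of Zic2 loss can be compared where Ehmt1 is intact, in Zic2 KO against WT cells at 32 h, which share no library with the comparison above. Zic2 counts did not check this label either, with 156 and 228 CPM in the Zic2 KO lines, against 146 and 144 CPM in WT cells (log2 0.41 ± 0.39). There 12 genes were called (0.0766% of those tested), 7 higher (0.0447%) and 5 lower (0.0319%), and 2 of them were among the 35: Id3 and Arhgef26, both higher again. With only the groups compared fitted, 1516 genes were called here, against 0 between the double KO and the Ehmt1 KO. The order of the counts 12 and 35 thus depends on the fit. Id3 averaged 15.9 CPM in Zic2 KO cells, against 5.12 CPM in WT cells (log2 1.64 ± 0.17, adjusted p 0.0019), and Arhgef26 74.1 CPM in Zic2 KO cells, against 31.3 CPM in WT cells (1.25 ± 0.11, adjusted p 0.00052). Each time a single library was left out, 2 genes were called in place of 12. Of the 18 genes that rose in the double KO, 17 had a positive value in Zic2 KO cells (49.1% of all genes did) with a median of 0.26, and of the 17 that fell, 16 had a negative value (50.3% of all genes did) with a median of -0.48. The exceptions were Lgi2 (-0.32) and Bmf (0.18). Slc5a5 averaged 8.92 CPM in Zic2 KO cells, against 24.4 CPM in WT cells (log2 -1.45), and Prom1 13.2 CPM in Zic2 KO cells, against 30 CPM in WT cells (-1.18). Esrrb averaged 50.9 CPM in Zic2 KO cells, against 41.5 CPM in WT cells (0.30), and Cxcl12 44.4 CPM in Zic2 KO cells, against 58.6 CPM in WT cells (-0.40).

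Whether the effect of the Zic2 label depended on Ehmt1 was tested as the difference between both comparisons at 32 h. No gene was called in edgeR's quasi-likelihood test, with 891 genes at an unadjusted p under 0.05 and a smallest adjusted p of 0.42, while DESeq2 called 13. The median standard error of this difference was 0.29 on the log2 scale.

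The 35 genes were also followed through the course of WT cells. In WT cells from 2i to 32 h, 14 of the 18 genes that rose in the double KO fell and 2 rose, where 35.7% of all genes were called, 17.8% lower and 17.9% higher at 32 h, and 14 of the 17 genes that fell in the double KO rose and 1 fell. Of the 35, Esrrb had the largest fall in this course (log2 -4.22) and Pcdh1 the largest rise (5.14). Wnk2 and Gm15441 rose both in the double KO and in this course, and Acss1 fell in both.

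**Figure D5:**
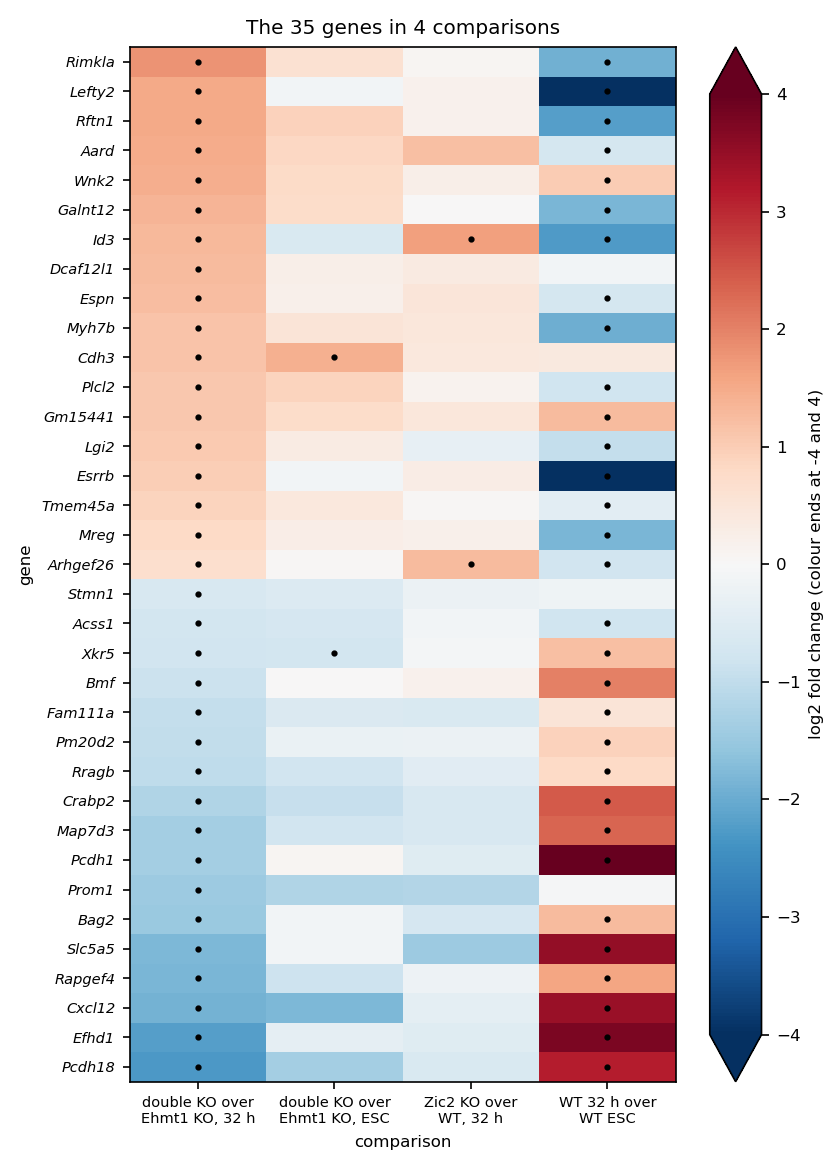
Log2 fold change (colour) of the 35 genes called at 32 h, in the double KO over the Ehmt1 KO at 32 h and in 2i, in Zic2 KO over WT cells at 32 h, and in WT cells at 32 h over 2i, with a dot where a gene was called. Signs in 2i and in Zic2 KO over WT cells mostly follow those at 32 h, with 2 dots in each, and most signs in the WT course are opposite.

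Differences from WT cells at 32 h are set side by side here, since these comparisons share the WT libraries and each shares a KO group with the comparison above. Esrrb was 2.47 higher on the log2 scale in the double KO than in WT and 1.49 higher in the Ehmt1 KO than in WT. Lefty2 stood at 2.29 in the double KO and 0.76 in the Ehmt1 KO over WT, and Id3 at 2.49 in the double KO and 1.20 in the Ehmt1 KO. Cxcl12 stood at -3.01 in the double KO and -1.11 in the Ehmt1 KO, and Pcdh1 at -2.44 in the double KO and -1.08 in the Ehmt1 KO. Crabp2 lay below WT in the double KO (-0.59) and above it in the Ehmt1 KO (0.60). Among the genes that rose, the double KO mean lay beyond the Ehmt1 KO mean, away from WT, in 10 of 18, and on the WT side of the Ehmt1 KO mean in 8. Among those that fell, it lay beyond in 9 of 17 and on the WT side in 8. On that side were Wnk2, at 0.17 in the double KO and -1.27 in the Ehmt1 KO over WT, and Rapgef4, at -0.06 in the double KO and 1.76 in the Ehmt1 KO. The Ehmt1 KO mean enters both sides of this placement, and no share over all genes was computed, so nothing is read from its counts. Against WT, 39.1% of genes were called in the double KO and 26.6% in the Ehmt1 KO. These shares are not a test between the 2 genotypes, where the direct comparison called 0.223%. Their dependence on the processing was not tested.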

How the data were processed

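The authors deposited raw counts, whole numbers per Entrez gene ID, as 2 tables; the comparison uses the 16 polyA libraries (TruSeq mRNA kit, per the labels' protocols), and the 12 ribo-depleted libraries were not used here. The submitters' processing notes name edgeR and the build GRCm38 (mm10). No aligner, counting tool, annotation, strand setting or filter is named there or in the labels, so counts of near-identical, overlapping and antisense genes are uncertain. Symbols and coordinates came from RefSeq GRCm38.p6 (24061 IDs matched, 55 did not), and 250 bases upstream of each start from its promoter table. All 16 libraries (19013882 to 28777604 counts) were fitted together with 1 mean per group, so groups of n = 2 share the spread (8 residual degrees of freedom). Genes passed filterByExpr (minimum count 10, minimum total 15), library sizes were scaled by TMM, and tests were edgeR's robust quasi-likelihood tests with Benjamini-Hochberg adjustment over 15667 genes; every adjusted p is from this test unless DESeq2 is named. CPM use the TMM library sizes. A standard error is the absolute log2 fold change over the root of its F statistic. The fit was tested on data simulated with the same spread per gene in all groups, so this test cannot check calls between groups of unequal spread. The tools were edgeR 4.0.16 with limma 3.58.1, and DESeq2 1.42.0 as an alternative, under R 4.3.3; other alternatives were other size factors, no filter, subsets of libraries, left-out libraries and a replicate block.

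Replicates are numbered KO lines, and the WT libraries carry 2 WT labels. No label says that libraries of one line came from separate cultures. The p-values measure the spread between libraries of one group, pooled over the 16 polyA libraries. Lines of one genotype differed beyond counting noise (chi-square per degree of freedom 6.39 to 37.4), so none was counted as a duplicate. At 32 h this value was 25.1 in the double KO and 29.8 in the Ehmt1 KO, against 6.39 in Zic2 KO and 7.15 in WT cells. The pooled spread may therefore be too small for the 35 calls and too large for Zic2 KO against WT. For the change between 2i and 32 h the number marks the same line at both stages, and same-numbered deviations correlated at 0.53 (double KO) and 0.46 (Ehmt1 KO), so the blocked value is given beside it. The comparison, the 27 gene lists (411 genes) and the text's emphasis were chosen with earlier results of these data known. Named genes are the targeted and related genes, the called genes with the largest folds or smallest p, called list members, any member of the naive, general pluripotency, formative and Zic lists, and up to 2 abundant uncalled members of other lists. The uncalled genes Dcn, Epcam, Id2, Lefty1, Meg3, Mirg, Nodal, Rian, Smad6, Sox1, Tead4 and Usp17la, those next to the threshold, and those of the last section on 2i alone were chosen after their values were seen. Not every listed gene is reported here.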

Additional observations from a re-analysis of the deposited data

Results flagged for a closer look

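In edgeR's fit of all 16 polyA libraries without a block, Id3 was the 1 gene called for a change between 2i and 32 h. The change tested was that of the difference between the double KO and the Ehmt1 KO. The log2 difference was 1.29 at 32 h and -0.62 in 2i, a change of 1.91 (edgeR quasi-likelihood interaction, adjusted p 0.025). With the line as a replicate block, fitted on the double KO and Ehmt1 KO libraries alone, 8 genes were called. DESeq2 called 9, and Id3 was among the genes called both times. Without the block, the call of Id3 was lost in several fits that left out 1 library. Id3 was also higher in Zic2 KO than in WT cells at 32 h (1.64). The cause was not tested.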

How the results depend on the processing

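All 35 genes kept their direction in each of the 16 alternatives in which they were tested (11 planned, 5 added after seeing the data), and so did the 41 uncalled genes followed with them, but none of the 35 was called in every one; Cxcl12 was called in 13, and 33 of the 41 were called in at least 1. Every alternative reused the same libraries, and in all 35 genes these did not overlap, so their kept direction was largely fixed in advance. The counts moved as follows, and the cause was not tested where none is given. With DESeq2 in place of edgeR, 260 genes were called at 32 h (117 higher, 143 lower), 189 in 2i (78 higher, 111 lower), 9 for the stage difference (6 higher, 3 lower), 170 in Zic2 KO against WT (82 higher, 88 lower) and 13 for the dependence on Ehmt1 (6 higher, 7 lower). With no filter, on 20692 genes, 69 were called at 32 h (33 higher, 36 lower), 36 in 2i (17 higher, 19 lower) and 48 in Zic2 KO against WT (24 higher, 24 lower). Fitting only the groups compared gave 0 at 32 h, 0 in 2i and 0 for the stage difference (0 higher, 0 lower), and 1516 in Zic2 KO against WT (670 higher, 846 lower). Fitting the 8 libraries at 32 h gave 10 (3 higher, 7 lower). The 12 KO libraries alone, added after seeing the data, gave 1 lower and 0 higher gene both at 32 h and in 2i. With DESeq2 size factors, 7 were called in 2i (3 higher, 4 lower). Leaving out single libraries gave 0 to 280 at 32 h (0 to 126 higher, 0 to 154 lower). Leaving out a line at both stages, added after seeing the data, gave 63 without double KO line 1 (42 higher, 21 lower), 209 without double KO line 2 (75 higher, 134 lower), 739 without Ehmt1 KO line 1 (429 higher, 310 lower) and 0 without Ehmt1 KO line 2. Left-out libraries gave 0 to 287 in 2i (0 to 134 higher, 0 to 153 lower), 0 to 5 for the stage difference (0 to 3 higher, 0 to 3 lower), 2 in Zic2 KO against WT (1 to 2 higher, 0 to 1 lower) and 0 to 1 for the dependence on Ehmt1 (0 higher, 0 to 1 lower). A group left with 1 library is then assumed to vary like the others. Whether double KO and Ehmt1 KO lines of the same number share an origin or a batch is not given and was not tested. Their same-numbered deviations correlated at 0.22 at both stages. Against the Zic2 KO lines at 32 h the correlation was -0.06 for the double KO and 0.08 for the Ehmt1 KO. With the line number as a replicate block over the 12 KO libraries, 41 genes were called at 32 h (18 higher, 23 lower, 22 of the 35 among them) and 9 in 2i (3 lower). With the line as a replicate block, fitted on the double KO and Ehmt1 KO libraries alone, the stage difference had 8 (5 higher, 3 lower). The 2 lines per genotype limit the size of difference that can be called.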

Other observations

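Of the 15 genes called between the double KO and the Ehmt1 KO in 2i, 2 were also called at 32 h. Among the others, named after their values were seen, the matrix crosslinking enzyme gene Loxl2 had a log2 fold change of 2.23 in 2i (adjusted p 0.0089) and 0.45 at 32 h, with 12 and 13.2 CPM in the double KO lines at 32 h, against 8.84 and 9.61 CPM in the Ehmt1 KO lines. The nucleoside transporter gene Slc29a1 was at -1.18 in 2i (adjusted p 0.026) and 0.18 at 32 h, and the transcription factor gene Myb at -1.21 in 2i (adjusted p 0.023) and -0.61 at 32 h.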
